A study of Mus musculus with 6 samples.

Results

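The genes described here are the 8 that write and erase DNA methylation in mouse cells: the methyltransferase genes Dnmt1, Dnmt3a and Dnmt3b, their cofactor genes Uhrf1 and Dnmt3l, and the dioxygenase genes Tet1, Tet2 and Tet3. They were chosen by symbol, with no measured value in the rule but with earlier results of these data known. They matched 8 of the 50686 Ensembl identifiers in the count files. The cells were induced pluripotent stem cells (iPSCs) that had been reprogrammed from mouse gingival fibroblasts and lifted off their SNL feeder cells. They were formed into embryoid bodies, which were exposed to retinoic acid and then left to attach to gelatin. The ICF group received intermittent compressive force at 1.5 g/cm2 and 0.23 Hz for 24 h in serum-free medium, and the control group was kept in the same medium without load. Each group held 3 samples, numbered as donors 1 to 3 in the labels and called replicates here. The study's methods speak of independent experiments and name no more than a single kind of iPSC, so p-values cover the spread between these samples and not between animals. Whole-number read counts per gene were analysed, and DNA methylation itself was not analysed here.

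Methyl groups sit mainly on cytosines followed by guanine (CpG). DNMT3A and DNMT3B place new methyl groups on unmethylated CpGs, and DNMT3L, which has no catalytic activity of its own, stimulates both. After replication, UHRF1 recognises CpGs methylated on the parental strand only and brings DNMT1 there to copy the mark. The TET enzymes oxidise 5-methylcytosine with 2-oxoglutarate and iron, after which the base can be cut out by a glycosylase or diluted by replication. Naive pluripotent cells are known for high Tet1 and Tet2, and Dnmt3b is known to rise as they move towards the epiblast state.

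The samples held 28711166 to 34194413 reads assigned to genes, and each of the 8 genes held between 555 and 17586 reads in every sample. Tet3, with 555 to 756 reads, rests on the fewest. ICF replicate 3 stood apart from the other samples. In it, 89.0% of the genes with a count had a multiple of 4, against 20.3% to 21.5% elsewhere, and 20802 genes had a count, against 24340 to 24889 elsewhere. Both samples numbered 3 also had more alignments outside genes, at 6.24% of records in the control and 6.04% in the ICF sample, against 4.09% to 4.52% in the others. The numbers in the labels were treated as pairs in a separate fit. This fit, called the replicate block below, sets each ICF sample against the control sample of the same number. Across genes, deviations from the group means correlated within the same-numbered pairs 1, 2 and 3 at 0.13, 0.17 and 0.32. Control replicate 1 with ICF replicate 2 correlated at 0.23, and control replicate 2 with ICF replicate 1 at 0.15. These correlations thus set the samples numbered 3 apart but do not tell the pairing of numbers 1 and 2 from the swapped one.

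Dnmt3b, Dnmt3l and Tet2 were called in some of the fits below and not in others. Their start regions are shown first, because they differ widely in the CpGs that these enzymes act on. Each is 250 bases before to 50 bases after a RefSeq transcription start in GRCm38.p6, written 5′ to 3′ on the gene's own strand with every CG in capitals. Dnmt3b has a single such window, on the forward strand of chromosome 2. Tet2 has a single window on the reverse strand of chromosome 3, and Dnmt3l has 3 on the forward strand of chromosome 10.
Dnmt3b, chr2:153649199-153649498: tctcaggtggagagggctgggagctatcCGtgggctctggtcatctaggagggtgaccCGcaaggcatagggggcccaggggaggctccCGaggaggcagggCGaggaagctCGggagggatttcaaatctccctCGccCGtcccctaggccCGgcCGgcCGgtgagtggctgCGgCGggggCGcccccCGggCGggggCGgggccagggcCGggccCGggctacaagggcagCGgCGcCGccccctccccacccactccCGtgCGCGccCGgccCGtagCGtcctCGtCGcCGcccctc
Tet2, chr3:133544341-133544640: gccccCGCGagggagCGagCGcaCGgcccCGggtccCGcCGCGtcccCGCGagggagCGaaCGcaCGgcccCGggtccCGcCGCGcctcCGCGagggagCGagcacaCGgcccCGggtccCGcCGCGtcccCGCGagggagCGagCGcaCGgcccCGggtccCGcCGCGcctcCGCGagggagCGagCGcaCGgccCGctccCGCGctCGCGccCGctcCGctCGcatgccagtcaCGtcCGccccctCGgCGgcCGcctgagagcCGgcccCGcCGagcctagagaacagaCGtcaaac
Dnmt3l start 1, chr10:78042037-78042336: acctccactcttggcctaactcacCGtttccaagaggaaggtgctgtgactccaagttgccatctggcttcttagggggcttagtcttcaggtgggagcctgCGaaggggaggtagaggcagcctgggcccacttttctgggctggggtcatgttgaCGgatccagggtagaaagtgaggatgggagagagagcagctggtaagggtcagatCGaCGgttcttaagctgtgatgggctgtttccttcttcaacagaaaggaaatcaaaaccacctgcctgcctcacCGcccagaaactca
Dnmt3l start 2, chr10:78049592-78049891: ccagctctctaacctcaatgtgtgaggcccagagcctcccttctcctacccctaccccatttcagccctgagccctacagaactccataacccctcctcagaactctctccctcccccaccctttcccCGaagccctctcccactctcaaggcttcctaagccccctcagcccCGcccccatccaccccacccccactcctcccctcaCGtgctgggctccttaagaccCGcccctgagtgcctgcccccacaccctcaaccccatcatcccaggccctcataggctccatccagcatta
Dnmt3l start 3, chr10:78055085-78055384: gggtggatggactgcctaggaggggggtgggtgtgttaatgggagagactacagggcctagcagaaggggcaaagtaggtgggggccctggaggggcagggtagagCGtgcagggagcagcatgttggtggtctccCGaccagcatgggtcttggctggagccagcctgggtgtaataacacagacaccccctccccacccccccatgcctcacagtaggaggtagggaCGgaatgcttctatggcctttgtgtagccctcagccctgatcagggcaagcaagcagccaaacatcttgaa

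The Tet2 window held 57 CpGs, more than 99.8% of the 32807 windows of this length in the table, whose median was 7. The Dnmt3b window held 30, more than 88.3% of windows. The Dnmt3l windows held 6, 4 and 3, all under that median. Gene counts do not tell which Dnmt3l start was used. The GC box GGGCGG, searched on both strands and itself holding a CpG, matched 4 times in the Dnmt3b window, once in that of Tet2, and in 2 of the 3 Dnmt3l windows. It occurs in 35.6% of all windows. The hypoxia-response core ACGTG or GCGTG, which also holds a CpG, had no match in the Dnmt3b window, 1 in that of Tet2 and a match in 2 of the 3 Dnmt3l windows, and it occurs in 43.8% of all windows.

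Whether ICF changed the mRNA of these genes was asked by setting the 3 ICF samples against the 3 control samples. Without the pairing, 0 of the 8 genes passed an adjusted p of 0.05 in edgeR's quasi-likelihood test, where 7.85% of the 16729 genes tested did. At an unadjusted p under 0.05 stood 3 of the 8, Dnmt3b, Dnmt3l and Tet2, and 4277 of all genes tested. Of all genes, 3.47% rose and 4.38% fell. DESeq2 without the pairing called 1 of the 8, Dnmt3b, and 13.2% of all genes it tested. With the replicate block these 3 passed in edgeR and in DESeq2, Dnmt3b higher and Dnmt3l and Tet2 lower with ICF, but 29.9% of all genes passed in edgeR with the block and 21.3% in DESeq2 with the block, so the count does not set the 8 genes apart. Dnmt1, Uhrf1, Dnmt3a, Tet1 and Tet3 passed in neither fit. The groups did not overlap for 2 of the 8, Uhrf1 and Tet2, against 31.4% of all genes tested. Values below are normalised read counts on the CPM scale (TMM), and each ± after a log2 fold change is a standard error computed from the SDs of log2 CPM.

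**Figure D1:**
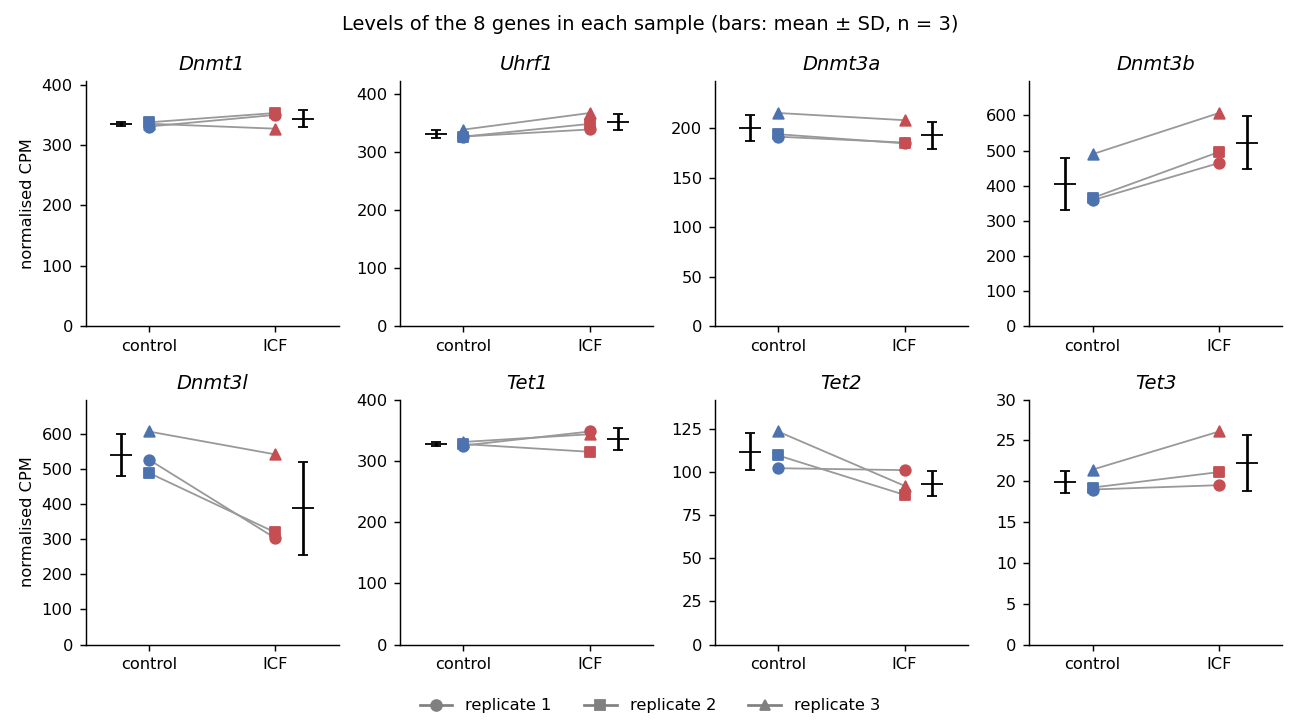
Normalised CPM (vertical axes, starting at 0) of the 8 genes in the control and ICF samples, with grey lines joining samples of the same number and black bars at the mean ± SD of 3 samples. Dnmt3b, Uhrf1 and Tet3 are higher and Dnmt3l, Tet2 and Dnmt3a are lower with ICF along all 3 lines. Among these genes the groups overlap for all but Uhrf1 and Tet2.

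Dnmt3b, the main de novo methyltransferase of the early embryo (chr2:153649450-153687730, forward strand), stood at 358, 365 and 490 CPM in control replicates 1, 2 and 3. With ICF it stood at 465, 496 and 607 CPM. Control replicate 3 lay above ICF replicate 1, so the groups overlapped, but each ICF sample was above the control of the same number, by 0.37, 0.44 and 0.31 on the log2 scale. The means were 404 ± 74.0 CPM in control and 523 ± 74.8 CPM with ICF (SD, n = 3 each), a ratio of 1.29. Without the pairing the log2 fold change of Dnmt3b was 0.37 ± 0.19, with an edgeR adjusted p of 0.132. Once paired by the replicate block it rose by 0.38 on the log2 scale, with an edgeR adjusted p of 2.31e-07. Leaving out control replicate 3 alone brought the unpaired log2 fold change to 0.53, with an edgeR adjusted p of 0.0244. That fit called 9.7% of all genes. No other fit with a single sample left out called Dnmt3b. Over all such fits its log2 fold change ranged from 0.26 to 0.53. Of the 75-base stretches of the longest Dnmt3b transcript, 7.72% also occur in transcripts of its paralog Dnmt3c, where a read could not have been assigned.

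Dnmt3a, which methylates DNA in differentiating and adult cells (chr12:3806007-3914443, forward strand), stood at 191, 194 and 215 CPM in control and at 185, 184 and 208 CPM with ICF. The highest value of both groups belonged to the samples numbered 3, and the groups overlapped. Its log2 fold change was -0.06 ± 0.08, with an edgeR adjusted p of 0.683 without and 0.431 with the replicate block. All 3 within-pair differences were negative, between -0.07 and -0.05.

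Dnmt3l, the non-catalytic partner known from pluripotent and germ cells (chr10:78041947-78063622, forward strand), stood at 528, 490 and 608 CPM in control replicates 1, 2 and 3. With ICF it stood at 303, 320 and 543 CPM. ICF replicates 1 and 2 were below all control samples, and ICF replicate 3, the sample with most counts in steps of 4, was inside the control range. The means were 542 ± 60.3 CPM in control and 389 ± 134 CPM with ICF (SD, n = 3 each), a ratio of 0.717. The unpaired log2 fold change of Dnmt3l was -0.48 ± 0.28, with an edgeR adjusted p of 0.176. With the replicate block Dnmt3l fell by 0.53 on the log2 scale, with an edgeR adjusted p of 1.4e-07 and a DESeq2 adjusted p of 0.0229, over within-pair differences of -0.80, -0.62 and -0.16. Without ICF replicate 3 the unpaired log2 fold change was -0.79, with an edgeR adjusted p of 0.00196, in a fit that called 8.25% of all genes. Dnmt3l was called in no other fit with a single sample left out. Its log2 fold change ranged from -0.79 to -0.33 over all such fits. A looser filter, at least 1 read in any sample, called Dnmt3b and Dnmt3l but not Tet2 among 6.25% of all genes.

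Aire, which codes for a transcription regulator known from the thymus, overlaps the start of Dnmt3l on the opposite strand (chr10:78030022-78043610), and it was examined after its values had been seen. The genes share 1664 bases, of which 67 are exonic in both. Aire stood at 77.8, 73.7 and 117 CPM in control replicates 1, 2 and 3 and at 14.6, 16.9 and 38.8 CPM with ICF, with no overlap between the groups. Its log2 fold change was -1.94 ± 0.49, with an edgeR adjusted p of 0.0130 without and 1.41e-19 with the replicate block. In both groups the sample numbered 3 was the highest for Aire, as it was for Dnmt3l. The libraries were strand-specific, but the strand setting of the counting is not given in the sources used here, and the part of the overlap in either result was not tested.

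**Figure D2:**
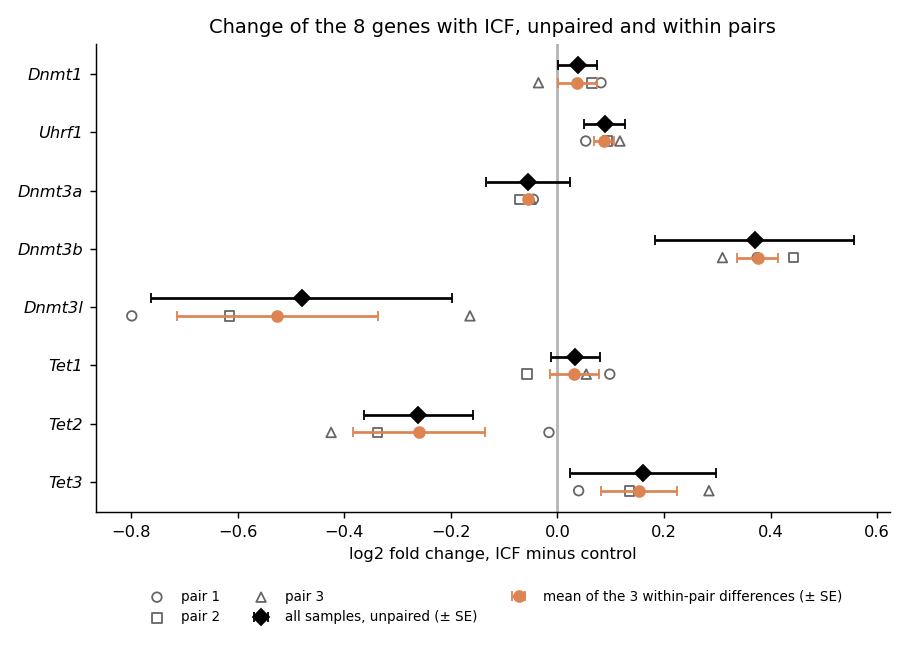
Log2 fold change of each of the 8 genes, ICF minus control (horizontal axis): black diamonds give the unpaired value ± SE, open symbols the difference within each same-numbered pair, and orange circles their mean ± SE. For Dnmt3b the pair differences lie between 0.31 and 0.44, and for Dnmt3l they spread from -0.80 to -0.16.

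Neither gene of maintenance methylation passed in either fit. Dnmt1, which copies methylation after replication (chr9:20907209-20959888, reverse strand), stood at 331, 338 and 335 CPM in control and at 350, 353 and 327 CPM with ICF. ICF replicate 3 was the lowest of the 6 samples and the other 2 ICF samples the highest. The log2 fold change of Dnmt1 was 0.04 ± 0.04, with an edgeR adjusted p of 0.718 without and 0.613 with the replicate block. Uhrf1, which recruits DNMT1 to hemimethylated CpGs (chr17:56303321-56323486, forward strand), stood at 326, 326 and 338.1 CPM in control and at 338.3, 348 and 367 CPM with ICF. All ICF samples were above all control samples, though the nearest ones almost touched. Its log2 fold change was 0.09 ± 0.04, with an edgeR adjusted p of 0.373 without and 0.176 with the replicate block. In the longest Uhrf1 transcript 11.3% of 75-base stretches also occur in Gm5648.

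Among the TET genes Tet2 alone passed, and it did so with the replicate block. Tet2 (chr3:133463679-133545139, reverse strand), which codes for the TET enzyme without a CXXC domain of its own, stood at 102, 109 and 123 CPM in control replicates 1, 2 and 3. With ICF it stood at 101, 86.6 and 91.9 CPM. All ICF samples were below all control samples, but those numbered 1 were almost level. The means were 112 ± 10.8 CPM in control and 93.1 ± 7.25 CPM with ICF (SD, n = 3 each), a ratio of 0.835. The unpaired log2 fold change of Tet2 was -0.26 ± 0.10, with an edgeR adjusted p of 0.101 and a two-sided exact permutation p of 0.1, the smallest that 3 samples against 3 can give. With the replicate block Tet2 fell by 0.26 on the log2 scale, with an edgeR adjusted p of 0.00107 and a DESeq2 adjusted p of 0.00605, over within-pair differences of -0.02, -0.34 and -0.42. With replicate 3 of both groups left out as well, the blocked log2 fold change of Tet2 was -0.18, with an edgeR adjusted p of 0.0398, in a fit that called 26.8% of all genes. All 3 were also called without the block when replicate 3 of both groups was left out, among 30.1% of all genes, and with the block and ICF replicate 3 divided by 4, among 32.6%.

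Tet1, the most abundant TET gene of mouse pluripotent cells (chr10:62804570-62908996, reverse strand), stood at 325, 327 and 331 CPM in control and at 348, 315 and 344 CPM with ICF. The control samples lay within the range of the ICF samples. Its log2 fold change was 0.03 ± 0.05, with an edgeR adjusted p of 0.766 without and 0.673 with the replicate block. Tet3, best known from the oocyte and the zygote (chr6:83362373-83459084, reverse strand), was the least abundant of the 8, at 19.0, 19.2 and 21.4 CPM in control and 19.5, 21.1 and 26.1 CPM with ICF. Each ICF sample was above its same-numbered control, by 0.04 to 0.28 on the log2 scale. The log2 fold change of Tet3 was 0.16 ± 0.14, with an edgeR adjusted p of 0.436 without and 0.139 with the replicate block.

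Levels were compared between genes as CPM per kilobase of exon. In control samples the order by mean CPM per kb was Dnmt3l at 181 ± 20.2, Dnmt3b at 79.2 ± 14.5, Uhrf1 at 77.5 ± 1.62, Dnmt1 at 45.3 ± 0.481, Tet1 at 21.2 ± 0.189, Dnmt3a at 12.02 ± 0.791, Tet2 at 6.62 ± 0.639 and Tet3 at 1.19 ± 0.0805 (SD, n = 3). The order of the means was the same with ICF, and the same with the length of the longest transcript in place of all exons. In control samples Dnmt3b, at 70.2 to 95.9 CPM per kb, overlapped Uhrf1, at 76.6 to 79.4. With ICF, Dnmt3l at 102 to 182 CPM per kb overlapped Dnmt3b at 91.0 to 119, but by the length of the longest transcript they did not overlap, at 167 to 298 and 108 to 141 CPM per kb. No other neighbours in the order overlapped in either group by either length. The methyltransferase with the least mRNA per length was Dnmt3a in every sample.

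**Figure D3:**
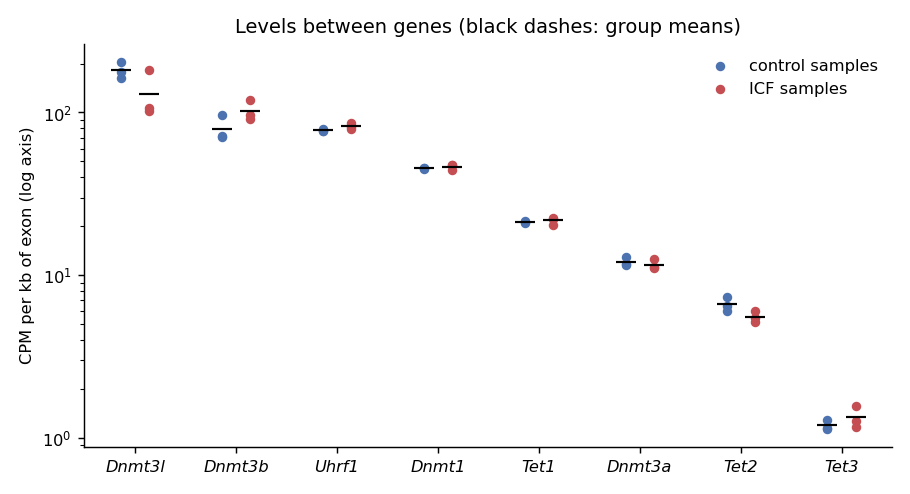
CPM per kb of exon on a log axis for the 8 genes, ordered by the control mean, with 3 control and 3 ICF samples each and black dashes at the group means. From Dnmt3l to Tet3 the control means run from 181 to 1.19 CPM per kb, and the ICF means from 130 to 1.33.

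Ratios within a sample do not depend on how libraries are scaled. Of 6 ratios compared, 2 separated the groups. Per kb, Dnmt3b exceeded its sister gene Dnmt3a 6.11-, 6.14- and 7.42-fold in control replicates 1, 2 and 3 and 8.17-, 8.77- and 9.51-fold with ICF. Each ICF sample had a higher ratio than each control sample, with a log2 difference of 0.43 ± 0.11, a two-sided exact permutation p of 0.1 and an adjusted p of 0.3 over the 6 ratios. Per kb, Tet1 exceeded Tet2 3.48-, 3.26- and 2.93-fold in control and 3.76-, 3.97- and 4.08-fold with ICF. Here too the groups did not overlap, with a log2 difference of 0.29 ± 0.08 and the same exact permutation p of 0.1, adjusted 0.3. The groups overlapped for Dnmt3l over Dnmt3a, with a log2 difference of -0.47 ± 0.22 and an exact permutation p of 0.2. They also overlapped for Dnmt3b over Dnmt1, Tet1 over Tet3 and Uhrf1 over Dnmt1, with log2 differences of 0.34 ± 0.21, -0.12 ± 0.14 and 0.05 ± 0.07 and exact permutation p-values of 0.3, 0.6 and 0.7. Adjusted over the 6 ratios, these 4 exact permutation p-values were 0.4 to 0.7. The sign of the last turned without ICF replicate 3, to -0.0155.

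The ratio of Dnmt3l to Dnmt3b was looked at after the values of both were known and is given without a test. Per kb, Dnmt3l exceeded Dnmt3b 2.52-, 2.29- and 2.12-fold in control replicates 1, 2 and 3. With ICF it exceeded Dnmt3b 1.12-, 1.10- and 1.53-fold. The size of this ratio depends on the length used, as above, while the difference between the groups does not. Among the TET genes, Tet1 made up 71.4% to 74.5% of the summed CPM per kb in control samples and 75.9% to 76.1% with ICF, while Tet2 made up 21.4% to 24.4% and 18.6% to 20.2%. The summed methyltransferases Dnmt1, Dnmt3a and Dnmt3b exceeded the summed TET genes per kb 4.48-, 4.47- and 5.14-fold in control and 5.04-, 5.83- and 6.01-fold with ICF, and these ranges overlapped.

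**Figure D4:**
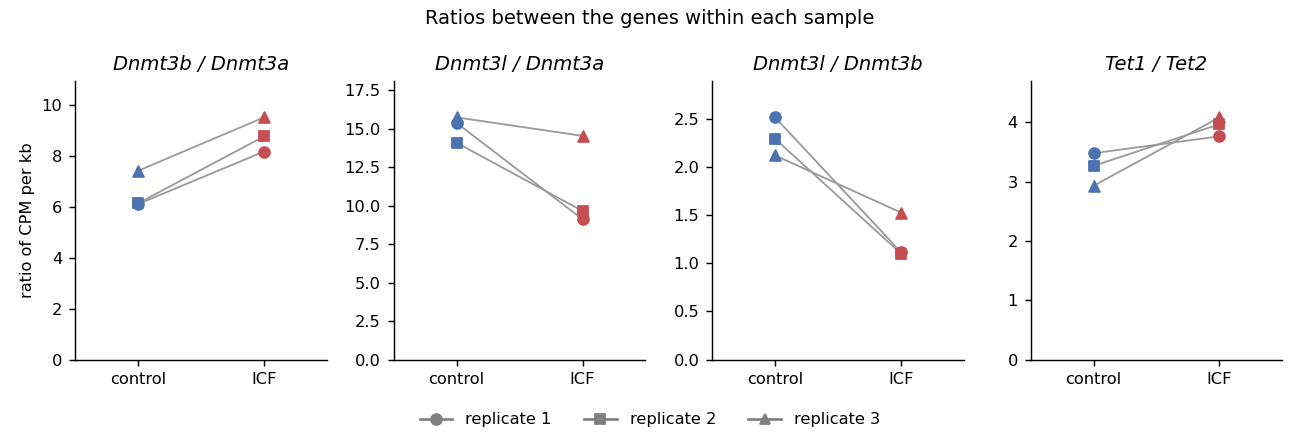
Ratios of CPM per kb between genes within each sample (vertical axes, starting at 0), with grey lines joining samples of the same number. Dnmt3b over Dnmt3a and Tet1 over Tet2 are higher in all ICF samples than in all control samples, and Dnmt3l over Dnmt3b lies at 1.10 to 1.53 with ICF against 2.12 to 2.52 in control.

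The genes that work with these enzymes were examined in 10 lists of 101 genes in all, every one of which was tested. Without the pairing 11 of them passed in edgeR, and with the replicate block 33, against the 7.85% and 29.9% of all genes given above. The 11 became 2, 1, 2 and 5 when control replicate 1, control replicate 2, ICF replicate 1 or ICF replicate 2 was left out. Over all fits with a sample left out, the lists gave 1 to 15 calls. Calls among all genes also moved in these fits, from 1313 with all samples to between 300 and 1652. Over all genes tested the median log2 change was 0.0026.

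Of the genes that bind methylated DNA or help DNMT1, 1 passed without the pairing. Among 9 methyl-CpG readers 1 rose, none fell and 8 did not pass, at a median log2 change of -0.01. It was Zbtb33, the zinc finger protein Kaiso, at 19.6 ± 0.826 CPM in control and 26.7 ± 3.64 CPM with ICF (SD, n = 3 each), a log2 fold change of 0.44 ± 0.12 with an edgeR adjusted p of 0.0395. Among 7 partners of maintenance methylation none passed without the pairing, and the median was 0.05. Pairing gave 1 that rose and 1 that fell. The latter was Lig1, the ligase that joins Okazaki fragments, at 290 ± 20.9 CPM in control and 249 ± 8.76 CPM with ICF, with edgeR adjusted p-values of 0.0859 without and 8.89e-04 with the block. Among 12 S phase genes none passed without the pairing and 3 rose with it, with a median of 0.01. The smallest adjusted p without the pairing belonged to Rrm2, a subunit of ribonucleotide reductase, with a log2 fold change of 0.17 ± 0.04 and edgeR adjusted p-values of 0.104 without and 0.00746 with the block. With the block the smallest was that of Ccne2, cyclin E2, at 4.79e-04 in edgeR and a blocked log2 fold change of 0.35.

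The list for protection of methylated sites and imprints held Zfp57, Zfp445, Trim28, Setdb1 and Dppa3, and its median log2 change was 0.18. In edgeR none of the 5 passed without the pairing, and all 5 rose with the replicate block, where 14.6% of all genes tested rose. Without the pairing DESeq2 called 2 of the 5, among 13.2% of all genes it tested. These were Zfp445 and Zfp57, at DESeq2 adjusted p-values of 0.00505 and 0.0293. DESeq2 with the block called 4 of the 5 and not Dppa3, at an adjusted p of 0.197. Zfp445, a zinc finger protein that guards imprints together with ZFP57, stood at 84.1, 93.8 and 110 CPM in control and at 128, 115 and 154 CPM with ICF. All its ICF samples were above all control samples. Its log2 fold change was 0.46 ± 0.17, with edgeR adjusted p-values of 0.0565 without and 5.38e-08 with the block.

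Genes that act after TET oxidation gave 2 lower members. Among 12 excision and repair genes none rose and 2 fell, at a median log2 change of -0.05, and with the replicate block 1 rose and 3 fell. Neil2, a DNA glycosylase, fell from 9.55 ± 0.812 to 6.34 ± 0.491 CPM (SD, n = 3 each), a log2 fold change of -0.59 ± 0.10 with an edgeR adjusted p of 0.0228. Gadd45b, a stress-induced gene linked to active demethylation, fell from 15.3 ± 1.08 to 11.3 ± 1.02 CPM, a log2 fold change of -0.44 ± 0.10 with an edgeR adjusted p of 0.0412. Among the 5 TET partners none passed in either fit. The smallest adjusted p was that of Dcaf1, a ubiquitin ligase subunit that modifies TET proteins, at a log2 fold change of 0.10 ± 0.07 and 0.414.

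Among 8 genes for histone marks and factors that guide the DNMT3 enzymes, 1 rose and 1 fell, at a median log2 change of 0.04. E2f6, a repressor that directs DNMT3B to germline gene promoters, rose from 32.4 ± 0.425 to 38.5 ± 0.156 CPM (SD, n = 3 each), with a log2 fold change of 0.25 ± 0.01 and an edgeR adjusted p of 0.0470. Ehmt2, the histone H3 lysine 9 methyltransferase G9a, fell from 266 ± 11.1 to 218 ± 17.0 CPM, with a log2 fold change of -0.29 ± 0.07 and an edgeR adjusted p of 0.0431. Under the block 1 rose and 3 fell. Among 16 germline genes known to be silenced by promoter methylation, none passed without the pairing, and with the replicate block 2 fell in edgeR, where 15.3% of all genes did, and 0 passed in DESeq2. Their median was -0.18, and Asz1, a gene of the germ cell piRNA pathway with 6 to 21 reads a sample, had the smallest adjusted p, 0.203, at a log2 fold change of -0.93 ± 0.42. Not all of the list was silent in these cells. It summed to 168 to 223 CPM in control and 162 to 225 CPM with ICF, with Tex19.1 highest at means of 64.3 and 66.8 CPM.

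The metabolic genes held the smallest adjusted p-values. Of 14 genes of methyl donor supply, 1 rose, 2 fell and 11 did not pass, at a median log2 change of 0.04. Shmt2, the mitochondrial serine hydroxymethyltransferase that feeds the folate cycle, stood at 451, 424 and 407 CPM in control and at 300.3, 322 and 284 CPM with ICF. All ICF samples were below all control samples. Shmt2 fell by 0.50 ± 0.07 on the log2 scale, with an edgeR adjusted p of 0.0043, and it passed whichever single sample was left out. Mthfd2, the next enzyme of that mitochondrial pathway, fell by 0.37 ± 0.06 on the log2 scale, with an edgeR adjusted p of 0.0122. Tdh, the threonine dehydrogenase characteristic of mouse pluripotent cells, rose by 0.39 ± 0.08, with an edgeR adjusted p of 0.0153. In the paired fit 3 genes rose and 3 fell.

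Of 13 genes that supply 2-oxoglutarate or act on TET inhibitors, none rose and 3 fell, at a median log2 change of -0.06. Idh2, the mitochondrial NADP-dependent isocitrate dehydrogenase that makes 2-oxoglutarate, stood at 266, 259 and 216 CPM in control and at 187, 179 and 152 CPM with ICF, with no overlap. It fell by 0.52 ± 0.13 on the log2 scale, with an edgeR adjusted p of 0.0188 and within-pair differences of -0.51, -0.53 and -0.51. Idh1, its cytosolic counterpart, fell by 0.36 ± 0.05 with an edgeR adjusted p of 0.0114, and Idh3a, the catalytic subunit of the NAD-dependent enzyme, fell by 0.24 ± 0.03 with an edgeR adjusted p of 0.0362. The call of Idh3a was lost whichever sample was left out and that of E2f6 in 5 of 6 such fits. Idh1 passed in 4 of 6, Idh2, Mthfd2 and Zbtb33 each in 3 of 6, and Tdh, Neil2, Gadd45b and Ehmt2 each in 2 of 6. Calls among all genes were 300 to 1652 in these fits, against 1313 with all samples. In the paired fit 2 genes of this list rose and 4 fell.

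**Figure D5:**
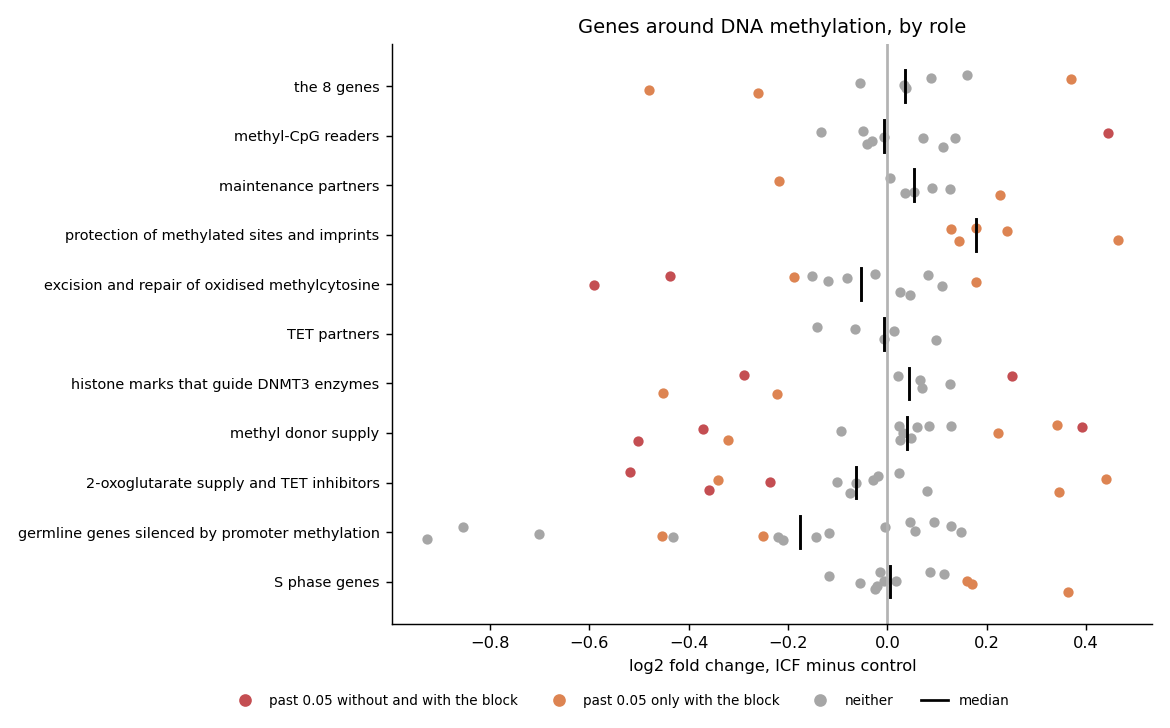
Log2 fold change, ICF minus control (horizontal axis), of the 8 genes and of the genes of each of the 10 lists (rows), with black lines at the medians. Red points passed an adjusted p of 0.05 in edgeR with and without the replicate block, orange points only with it, and all 5 genes of the protection list lie above 0.

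Among the pluripotency markers, Pou5f1, Nanog and Sox2 were present at high levels. Pou5f1 stood at 841 ± 57.2 CPM in control and 817 ± 70.4 CPM with ICF, Nanog at 353 ± 39.3 and 324 ± 20.5 CPM, and Sox2 at 457 ± 49.9 and 463 ± 7.72 CPM (SD, n = 3 each). Of 10 pluripotency markers 1 rose, Tbx3, a factor that sustains the naive state, with a log2 fold change of 0.39 ± 0.08 and an edgeR adjusted p of 0.0178, which was lost without control replicate 1 or 2, at 0.0853 and 0.0844. Against this, 8 of the 10 lay below 0, at a median log2 change of -0.08. Under the block 2 of them fell, the naive-state genes Klf4 and Dppa5a, with blocked log2 fold changes of -0.28 and -0.29 and edgeR adjusted p-values of 5.3e-05 and 1.16e-05. The summed level of this list was 3092 to 3632 CPM in control and 3000 to 3372 CPM with ICF. Of 4 markers of the primed epiblast none passed in edgeR without the pairing. DESeq2 without the pairing called 2, Otx2 and Fgf5, at adjusted p-values of 0.0294 and 0.0484. Otx2, which drives the step out of the naive state, stood at 40.5, 38.6 and 40.7 CPM in control and at 24.1, 23.7 and 38.2 CPM with ICF, with edgeR adjusted p-values of 0.115 without and 1.58e-05 with the replicate block. Its call was lost in DESeq2 with the block, at an adjusted p of 0.0557. Fgf5, a growth factor gene of the same list, went the other way, with a log2 fold change of 0.61 ± 0.30 and edgeR adjusted p-values of 0.132 without and 1.01e-05 with the block. ICF replicate 3 was near the controls for Otx2 as it was for Dnmt3l. Fewer cells of a type and less RNA per cell cannot be told apart in these bulk samples.

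Each list of markers of other cell types summed to a lower CPM than the pluripotency list, and some markers differed between the groups. Single markers did not all lie lower. Mean CPM in control and with ICF was 178 and 182 for Pdgfra and 173 and 177 for Gata4. For the pluripotency marker Zfp42 it was 77.0 and 69.8. CPM is not scaled by length, and the lists differ in size. Of 8 mesenchymal and fibroblast markers 1 rose, the collagen gene Col1a1, from 15.3 ± 3.31 to 25.6 ± 2.10 CPM (SD, n = 3 each), a log2 fold change of 0.75 ± 0.20 with an edgeR adjusted p of 0.0216, and with the replicate block 3 rose in edgeR and 2 in DESeq2. The Col1a1 call was lost without control replicate 1, ICF replicate 1 or ICF replicate 2, at edgeR adjusted p-values of 0.0822, 0.0835 and 0.0532. The summed level of this list was 363 to 415 CPM in control and 428 to 443 CPM with ICF. Of 5 endoderm markers 1 fell, the transcription factor gene Sox17, by 0.34 ± 0.09 on the log2 scale with an edgeR adjusted p of 0.0445, while the other 4 lay above 0. The Sox17 call was lost in 5 of 6 fits with a sample left out, at edgeR adjusted p-values of up to 0.177, and held without ICF replicate 2. Gata6, another endoderm regulator, rose with the block, at a blocked log2 fold change of 0.19 and an edgeR adjusted p of 0.00615. The list summed to 353 to 371 CPM in control and 347 to 387 CPM with ICF. Of 5 neuroectoderm markers 4 were tested and none passed in edgeR without the pairing. This list summed to 112 to 121 CPM in control and 106 to 115 CPM with ICF. Nes, the intermediate filament gene nestin, had an unpaired log2 fold change of 0.49 ± 0.20. Its edgeR adjusted p-values were 0.0998 without and 6.48e-04 with the block. DESeq2 without the block called Nes, at an adjusted p of 0.0456. Tubb3, a neuronal tubulin gene, went the other way, at a log2 fold change of -0.23 ± 0.08 with edgeR adjusted p-values of 0.107 and 0.00246. Of 4 early mesoderm markers, T and Mesp1 had too few reads to be tested and neither Eomes nor Mixl1 passed without the pairing, with sums of 28.1 to 36.6 and 25.4 to 33.3 CPM. The early mesoderm regulator Eomes had a log2 fold change of -0.21 ± 0.18, with edgeR adjusted p-values of 0.375 without and 0.0213 with the block, and it was not called in DESeq2 with the block, at an adjusted p of 0.101. The part of these cell types in the values of Dnmt3b, Dnmt3l and Tet2 was not tested.

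Tet2 had the smallest unpaired adjusted p of the 8, so genes with a like pattern were sought for it. Over the 6 samples, the 3 genes with the highest Pearson correlation of log2 CPM to Tet2 among 11924 genes with a mean of at least 100 reads were Baz2b at 0.993, Hspg2 at 0.990 and Ankrd17 at 0.990. This is a description over 6 points that share a group and a replicate number. The 3 genes had log2 fold changes of -0.18, -0.14 and -0.07.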

How the data were processed

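RNA was sequenced from 3 ICF and 3 control samples as 75-base single reads from a strand-specific kit. Per the study's methods, the authors removed poor reads (Trimmomatic), aligned the rest to the genome (HISAT2) and assigned them to genes (HTSeq). They deposited whole-number counts per gene, without normalization. The submitters' processing notes name GRCm38 and hg38 without roles. HTSeq leaves out reads that align to several places or genes. Multiply aligned records made up 29.5% to 31.3% per sample.

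Symbols, positions and exon lengths came from GENCODE M21 (GRCm38), which named 50376 of 50686 identifiers. Counts were tested with edgeR 4.0.16 in R 4.3.3 (TMM, filterByExpr, glmQLFit, glmQLFTest) without covariates, with Benjamini-Hochberg adjustment over all 16729 genes tested and a threshold of 0.05. The script was tested on simulated data. Pairing was checked as the correlation, across genes, of deviations from group means: 0.13, 0.17 and 0.32 for same-numbered samples and -0.31 to 0.23 otherwise. The pairs come from the donor numbers in the labels. DESeq2 1.42.0, RLE factors, 2 other count filters (1 or more reads in any sample, 10 or more in all), the replicate block, ICF replicate 3 divided by 4 and left-out samples were alternatives. Blocked fits combined with either handling of replicate 3, and the longest-transcript length, were added after seeing the data. Promoter windows are RefSeq's, and all 8 genes matched. The 8 genes and all lists were chosen with earlier results of these data known. Named list genes are those past the threshold without the pairing, at most 4 per list by adjusted p, or else the one with the smallest, and the genes most like the member with the smallest adjusted p. Pou5f1, Nanog, Sox2, Zfp42, Klf4, Dppa5a, Fgf5, Tubb3, Pdgfra, Gata4, Gata6, Ccne2 and Tex19.1 were named beyond this rule, after their values were seen. So were the other members of the protection list and Aire.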

Additional observations from a re-analysis of the deposited data

How the results depend on the processing

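No direction among the 8 genes turned under any of 16 alternatives. The log2 fold change ranged from 0.26 to 0.53 for Dnmt3b, from -0.79 to -0.33 for Dnmt3l and from -0.32 to -0.17 for Tet2. The number of the 8 genes called, 0 without the pairing, was 1 with DESeq2, 2 with the loosest filter (Dnmt3b and Dnmt3l, edgeR adjusted p 0.00888 and 0.00638) and 3 with the replicate block in edgeR or DESeq2, with replicate 3 of both groups left out, and in both added blocked fits. Leaving out single samples gave 0 to 1. Calls among all genes were 1313 without the pairing and 300 to 1652 with a sample left out. They were 5006 with the replicate block, 3020 with DESeq2 and the block, 5093 without replicate 3 of both groups, 5459 with the block and ICF replicate 3 divided by 4, and 4521 with the block and no replicate 3. Calls in the 10 lists were 11, against 17 with DESeq2 and 33, 30, 36, 37 and 31 in the same 5 settings, and 1 to 15 with a sample left out. The ratio of Uhrf1 to Dnmt1 ranged from -0.0155 to 0.0912 with a sample left out and turned sign without ICF replicate 3. Among the 8 genes the block changed no call other than those of Dnmt3b, Dnmt3l and Tet2. The cause of these differences was not tested. Each of the 8 genes had at least 555 reads a sample as counted, though in ICF replicate 3 89.0% of genes with a count had a multiple of 4.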

Other observations

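The neighbours and copies of the 8 genes held few reads apart from Aire, and were looked up after the values of the 8 genes were known. Dnmt3c, a rodent-specific copy of Dnmt3b known from male germ cells, held 8, 3 and 36 reads in control replicates 1, 2 and 3 and 6, 12 and 8 reads with ICF, too few to be tested. Control replicate 3, the highest control sample for Dnmt3b, was also the highest for Dnmt3c. The antisense gene Dnmt3bos held 5 to 9 reads a sample and Dnmt3aos at most 1. Gm5648, which shares stretches with Uhrf1, held 4 to 15 reads a sample, against 9531 to 11751 for Uhrf1. Reads that match both copies would have been left out of either count.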
